A study of Homo sapiens with 9 samples.

Results

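The tight junction genes described here are 9 genes taken by name: the claudins CLDN1, CLDN4 and CLDN7, the 4-pass membrane proteins occludin (OCLN) and tricellulin (MARVELD2), the junctional adhesion molecule F11R, and the plaque proteins ZO-1 (TJP1), ZO-3 (TJP3) and cingulin (CGN). Their symbols were matched to the Ensembl identifiers of the count tables, where all 9 were found among 60671 listed genes, and all 9 passed the filter on low counts that left 13390 genes for testing. The cells were N/TERT keratinocytes, a telomerase-immortalised human epidermal line, in 3 groups of 3 libraries: control cells labelled wild type, cells in which SGPL1 was knocked out by CRISPR (KO) and cells that overexpress SGPL1 (OE), none of them treated. SGPL1 encodes the lyase that ends the sphingosine-1-phosphate pathway. The sources used here do not give the number of clones, the promoter of the overexpressed copy, or the calcium and confluence of the cultures. Nothing in the labels says that the libraries of a group came from separate cultures, so p-values measure the spread between these libraries, which may be technical.

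Tight junctions seal the space between epithelial cells. Claudins form the strands and decide which ions pass, occludin and tricellulin sit in the strands, with tricellulin enriched where 3 cells meet, and F11R binds its like on the neighbouring cell. On the cytoplasmic side the ZO proteins tie the strands to actin and cingulin joins this plaque to myosin. In the epidermis functional tight junctions lie in the granular layer, and CLDN1 is needed for the water barrier.

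Library totals ran from 6317564 to 13330479 counts. SGPL1 was at 83.9, 95.1 and 98.3 TMM-scaled CPM (counts scaled to a common library size) in control, 58.8, 58.3 and 61.6 in KO and 1132, 1104 and 929 in OE, so that no group overlapped another and the order followed the labels. Of 9 keratinocyte markers all were detected in every group. Their summed level was 24200 to 24700 CPM in control, 13500 to 14600 in KO and 27300 to 29300 in OE libraries. In KO against control 8 of the 9 fell and TP63 rose, beside 25.9% and 26.0% of all tested genes. With the trend over length and GC content described below removed, 7 fell, beside 20.6% of all tested genes. In OE against control 5 rose and 0 fell, beside 9.28% and 9.34% of all tested genes. Of 10 fibroblast markers 6 had no count in control, 4 in KO and 4 in OE, with COL3A1, LUM and POSTN at 0 in every group, and their summed level was at most 28.6 CPM. Simple epithelial markers, led by KRT8, summed to 1100 to 1270 CPM in control, 1450 to 1610 in KO and 962 to 1010 in OE. Of the 6 tested, 3 rose and MUC1 fell in KO against control, beside 26.0% and 25.9% of all tested genes. With the trend removed 3 rose and 1 fell, beside 24.9% and 20.6%. In OE against control 0 rose and 2 fell, beside 9.28% and 9.34%. The part of these shifts in the results on junction genes was not tested, and in such bulk libraries fewer cells of a kind and less RNA per cell cannot be told apart. Across genes, the KO to control fold change followed exon length (Spearman correlation -0.365) and GC content (-0.175), which the OE to control fold change hardly did (-0.0445 and 0.0345). Fold changes of KO are therefore also given as "corrected", from a fit in which each library's trend over exon length and GC content was removed. A ± follows a group mean with its SD over 3 libraries, or a log2 fold change with its SE. Each adjusted p is from the quasi-likelihood test of edgeR, adjusted by Benjamini-Hochberg across the 13390 genes, and a gene is said to rise or fall where it was under 0.05.

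KO cells had 3.88-fold less cingulin mRNA and 2.13-fold less ZO-1 mRNA than control cells, and more mRNA for F11R (1.33-fold), CLDN7 (1.45-fold) and, before correction only, CLDN1. OE cells had 4.1-fold less ZO-3 mRNA and 1.25-fold more CLDN4 mRNA. Of the 9 genes 3 rose, 2 fell and 4 did not pass in KO against control, where 51.9% of all tested genes passed, 26.0% higher and 25.9% lower. In OE against control 1 rose, 1 fell and 7 did not pass, against a background of 18.6%, with 9.28% higher and 9.34% lower. Once corrected, CLDN1 did not pass (adjusted p = 0.146) and CLDN4 did (adjusted p = 0.0114), so that again 3 rose and 2 fell in KO (45.6% of all genes passed, 24.9% higher and 20.6% lower), and 1 rose and 2 fell in OE (21.0%, with 10.6% higher and 10.4% lower). The groups did not overlap at 5 of the 9 genes in KO and at 3 in OE against control, beside 59.5% and 34.8% of all genes. The median log2 fold change of the 9 genes was 0.04 in KO and 0.03 in OE, beside 0 and -0.01 over all tested genes. The shares of changed members thus lay near the background in both comparisons, and what the data show lies in which members moved and how far. Both comparisons use the same 3 control libraries.

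**Figure D1:**
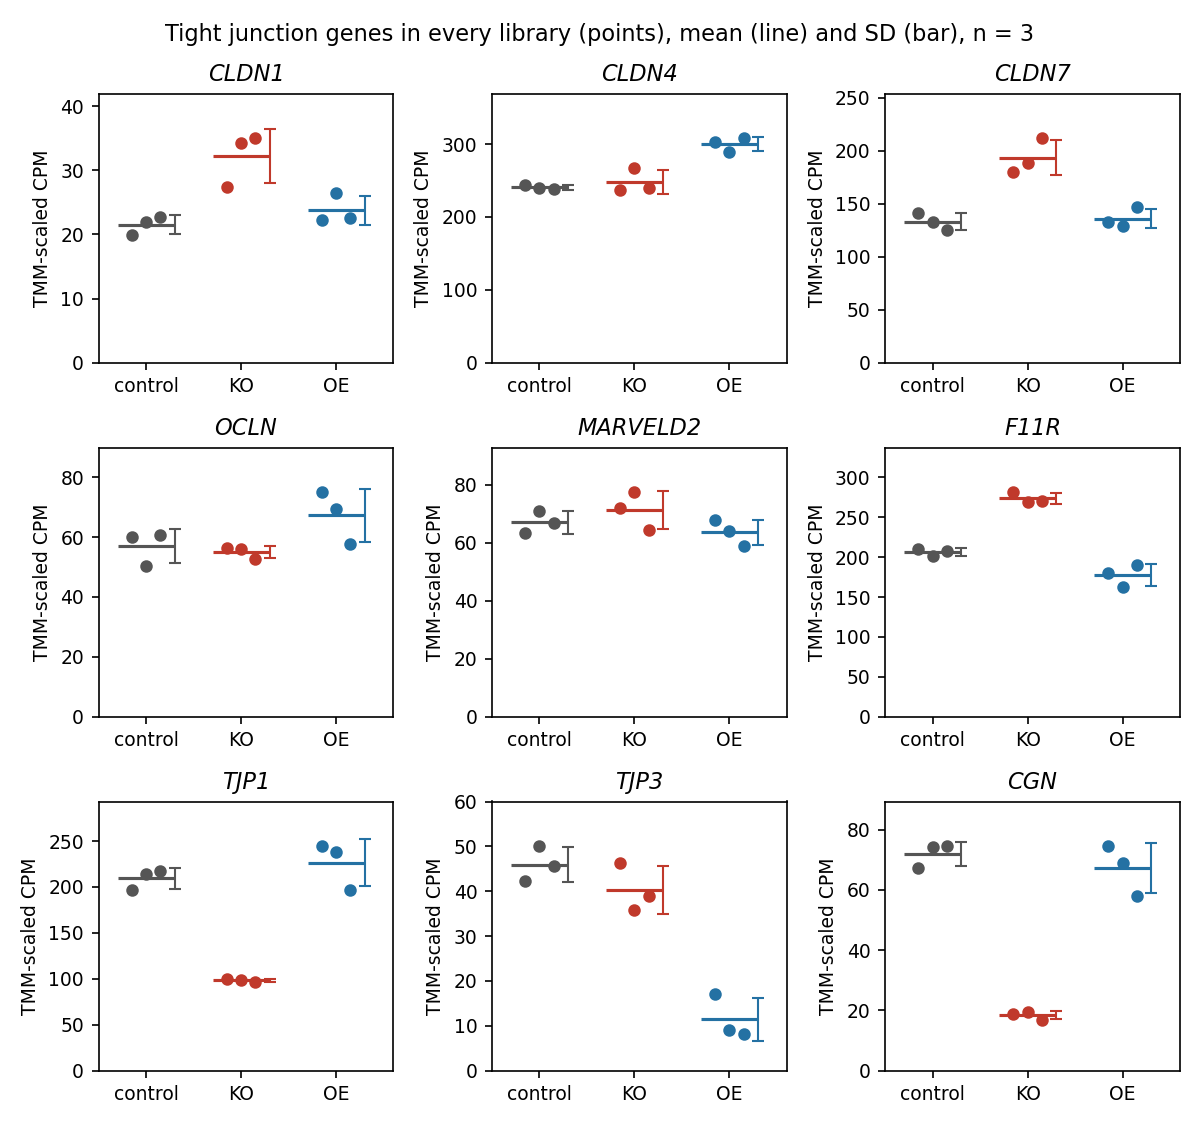
Level of each of the 9 tight junction genes as TMM-scaled CPM (y axis, from 0) in the control, KO and OE libraries (x axis); each point is a library, the line is the mean and the bar the SD of 3 libraries. CGN and TJP1 are low in all 3 KO libraries, TJP3 is low in all 3 OE libraries, and CLDN7 and F11R are high in all 3 KO libraries.

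Cingulin (CGN, ENSG00000143375; GRCh38 chromosome 1, 151510510 to 151538692, plus strand) had the lowest levels of the plaque genes in KO cells. Its level was 67.2, 74.2 and 74.5 CPM in the control libraries, 18.8, 19.6 and 16.9 in KO and 74.5, 68.8 and 58.1 in OE. The KO libraries lay far below all others, whereas OE and control libraries overlapped. The mean went from 72.0 ± 4.10 CPM in control to 18.4 ± 1.39 in KO, a log2 fold change of -1.96 ± 0.12 (corrected -1.69 ± 0.11; adjusted p = 9.62e-12, corrected 1.18e-12). Against OE cells, with 67.2 ± 8.31 CPM, the KO level differed by -1.85 ± 0.12 (adjusted p = 9.04e-12). OE cells did not pass against control (-0.10 ± 0.10, 95% interval -0.32 to 0.11, adjusted p = 0.556). The 165 other tested genes within 5 Mb of CGN had a median KO to control log2 fold change of -0.06, and 50.9% of them passed. The window of 250 bases before and 50 after the RefSeq start of CGN (GRCh38.p14, chr1:151511137-151511436, plus strand) is printed because CGN had the greatest KO to control change of the members. It was searched on both strands for the grainyhead motif AACCGGTT and for the E-box CAGGTG that Snail and ZEB repressors bind, and held neither, so it has no capitals.
CGN: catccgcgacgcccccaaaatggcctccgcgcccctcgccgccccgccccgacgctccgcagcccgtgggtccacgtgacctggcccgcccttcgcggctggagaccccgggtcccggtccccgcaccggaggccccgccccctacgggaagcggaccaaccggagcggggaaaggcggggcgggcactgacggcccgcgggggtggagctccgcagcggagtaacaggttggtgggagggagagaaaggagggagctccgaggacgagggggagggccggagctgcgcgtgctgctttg

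ZO-1 (TJP1, ENSG00000104067; chromosome 15, 29699367 to 29968865, minus strand), the scaffold on which strands assemble, was likewise lowest in KO. The control libraries had 197, 214 and 218 CPM, with 99.5, 99.2 and 96.6 in KO and 244, 238 and 197 in OE. The 3 KO libraries were close to each other and below every other library. The mean of 209.5 ± 11.3 CPM in control went to 98.4 ± 1.64 in KO (-1.09 ± 0.09, corrected -0.82 ± 0.08; adjusted p = 8.53e-10, corrected 8.43e-10) and was 226.5 ± 25.7 in OE (0.11 ± 0.08, 95% interval -0.06 to 0.29, adjusted p = 0.409). KO and OE cells differed by -1.20 ± 0.09 (corrected -0.95). With 11265 exon bases TJP1 is the longest of the 9 genes, and the correction moved its value towards 0. Genes around it were also lower in KO: the 30 other tested genes within 5 Mb had a median log2 fold change of -0.49 (corrected -0.32), and the part of this in the TJP1 value was not tested.

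ZO-3 (TJP3, ENSG00000105289; chromosome 19, 3708362 to 3750813, plus strand), the ZO protein of epithelia, was lowest in OE instead. Its level was 42.2, 50.03 and 45.6 CPM in the control libraries, 46.3, 35.9 and 38.9 in KO and 17.0, 9.17 and 8.10 in OE. The OE libraries, with 154, 91 and 111 counts, lay below all others, and control and KO libraries overlapped. The mean fell from 46.0 ± 3.91 CPM in control to 11.4 ± 4.88 in OE (-2.04 ± 0.19, adjusted p = 4.84e-08). In KO it was 40.4 ± 5.35 (-0.19 ± 0.17, corrected 0.05 ± 0.16, 95% interval -0.54 to 0.16 before correction, adjusted p = 0.371). KO exceeded OE by 1.85 ± 0.19 (corrected 2.11, adjusted p = 1.56e-08). The OE to control value ranged from -2.42 to -1.81 over all alternative fits, including those that left out a library. The 176 other tested genes within 5 Mb had a median OE to control log2 fold change of 0.02. RefSeq gives 2 starts for TJP3 and gene counts cannot show which was used. The window at the downstream start (GRCh38.p14, chr19:3721487-3721786, plus strand) is printed because it holds an E-box, in capitals, that begins 7 bases before the start, and the window at the upstream start holds neither motif.
TJP3: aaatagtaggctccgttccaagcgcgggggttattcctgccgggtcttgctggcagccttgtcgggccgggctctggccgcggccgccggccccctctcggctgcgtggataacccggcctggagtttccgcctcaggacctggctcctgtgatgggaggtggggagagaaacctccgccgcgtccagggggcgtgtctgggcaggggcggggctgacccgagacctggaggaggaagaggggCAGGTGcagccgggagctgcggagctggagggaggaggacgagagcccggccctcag

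The 3 plaque genes thus had different balances within a library. As a share of their summed level per kilobase of exon, TJP1 made up 44.3 to 45.9% in control, 37.8 to 42.3% in KO and 58.2 to 62.4% in OE libraries. CGN made up 26.2 to 26.7% in control, 12.2 to 14.2% in KO and 30.2 to 31% in OE libraries. TJP3 made up 27.3 to 29.5% in control, 43.5 to 50% in KO and 6.83 to 11.5% in OE libraries. The TJP3 shares did not overlap between any of the groups, and a share shows unequal change only. All these shares are uncorrected, so those in KO carry the trend over length and GC content.

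Among the claudins, CLDN7 (ENSG00000181885; chromosome 17, 7259903 to 7263983, minus strand) rose in KO cells. Control levels were 141, 132 and 125 CPM, with 179.8, 188 and 211.5 in KO and 132, 129 and 146.5 in OE. All KO libraries were above all others, and OE and control overlapped. The mean went from 133 ± 7.93 to 193 ± 16.4 CPM in KO (0.54 ± 0.09, corrected 0.43 ± 0.08; adjusted p = 1.41e-05, corrected 6.39e-05) and was 136 ± 9.28 in OE (0.03 ± 0.09, 95% interval -0.14 to 0.21, adjusted p = 0.833). The 126 other tested genes within 5 Mb had a median KO to control log2 fold change of -0.30, of the other sign. Exons of other genes cover 12.3% of the exon bases of CLDN7. The window at the downstream RefSeq start of CLDN7 (GRCh38.p14, chr17:7262429-7262728, minus strand) is printed because it holds 5 E-boxes, in capitals, beginning 174, 135, 20 and 9 bases before and 5 bases after the start. The window at its upstream start holds none.
CLDN7: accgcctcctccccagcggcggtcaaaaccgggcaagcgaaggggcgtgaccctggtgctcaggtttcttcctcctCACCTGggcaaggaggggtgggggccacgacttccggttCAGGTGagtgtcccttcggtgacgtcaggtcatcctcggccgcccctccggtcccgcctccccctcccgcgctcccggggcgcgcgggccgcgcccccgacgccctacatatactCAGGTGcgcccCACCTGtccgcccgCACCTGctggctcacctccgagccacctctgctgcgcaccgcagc

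CLDN1 (ENSG00000163347; chromosome 3, 190305707 to 190322446, minus strand), the claudin whose loss causes ichthyosis with sclerosing cholangitis, had the lowest level of the 3. Control levels ran 19.9, 22 and 22.7 CPM, with 27.5, 34.3 and 35.0 in KO and 22.2, 26.4 and 22.6 in OE. The KO libraries were above all others. The mean went from 21.5 ± 1.48 in control to 32.3 ± 4.16 in KO, with 182 to 306 counts per library behind these values (0.58 ± 0.14, adjusted p = 0.00104). With the trend over length and GC content removed the value was 0.24 ± 0.13 and did not pass (corrected adjusted p = 0.146). OE cells had 23.8 ± 2.31 CPM (0.14 ± 0.14, 95% interval -0.14 to 0.42, adjusted p = 0.539).

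CLDN4 (ENSG00000189143; chromosome 7, 73799542 to 73832693, plus strand) was the member that rose in OE cells. The 3 controls had 244, 240.1 and 238 CPM, with 237, 267 and 239.6 in KO and 303, 289 and 308 in OE. All OE libraries were above all others. The mean was 241 ± 3.01 CPM in control and 299.9 ± 9.94 in OE (0.32 ± 0.08, adjusted p = 0.00386). In KO it was 248 ± 16.8 CPM (0.04 ± 0.08, 95% interval -0.11 to 0.20, adjusted p = 0.646), and passed only with the trend removed (corrected 0.22 ± 0.07, adjusted p = 0.0114). CLDN4 was lower in KO than in OE (-0.27 ± 0.08, adjusted p = 0.0036), which did not pass once corrected (-0.07, adjusted p = 0.414).

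The makeup of the 3 claudins shifted accordingly. Per kilobase of exon, CLDN4 made up 45.5 to 47.2% of their sum in control, 35 to 40.1% in KO and 50.2 to 52.1% in OE libraries, with no overlap between groups. CLDN7 made up 46.9 to 49.7% in control, 53.2 to 58.3% in KO and 42.9 to 45% in OE libraries, again with no overlap. CLDN1 stayed between 4.77 and 6.67% in all 9 libraries. These shares are uncorrected, so those in KO carry the trend over length and GC content. Once corrected, the KO to control values of CLDN7 and CLDN4 were 0.43 and 0.22, against 0.54 and 0.04 before.

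F11R (ENSG00000158769; chromosome 1, 160995211 to 161021343, minus strand), the adhesion molecule JAM-A, had CPM values of 211, 201.5 and 207 in control, 281, 269 and 271 in KO and 181, 162 and 190.1 in OE. No group overlapped another: KO libraries were the highest and OE libraries the lowest. It rose from 207 ± 4.68 CPM in control to 274 ± 6.55 in KO (0.41 ± 0.08, corrected 0.40 ± 0.07; adjusted p = 0.00012, corrected 4.26e-05). In OE it was 178 ± 14.2 CPM and just missed the threshold (-0.22 ± 0.08, 95% interval -0.38 to -0.06, adjusted p = 0.0537), and it passed under DESeq2 (adjusted p = 0.0373) and limma-voom (adjusted p = 0.0419) and without OE replicate 3 (adjusted p = 0.0188). KO and OE differed by 0.62 ± 0.08 (adjusted p = 3.40e-07). Exons of a second annotated gene on the same strand cover 36.6% of the exon bases of F11R, so reads there may not have been counted.

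Occludin (OCLN, ENSG00000197822; chromosome 5, 69492292 to 69558104) and tricellulin (MARVELD2, ENSG00000152939; chromosome 5, 69415065 to 69444330), neighbours on the plus strand, did not pass in either edited line against control. OCLN had CPM values of 59.9, 50.5 and 60.6 in control, 56.4, 56.0 and 52.6 in KO and 74.9, 69.5 and 57.5 in OE. OE replicates 1 and 2 were above all others and OE replicate 3 lay among the controls. The OE to control value was 0.24 ± 0.11 (95% interval 0.01 to 0.46, adjusted p = 0.135), and without OE replicate 3 it was 0.35 and passed (adjusted p = 0.0186). Against OE, KO cells were lower (-0.29 ± 0.11, corrected -0.38, adjusted p = 0.0288), a call lost without KO replicate 2 (adjusted p = 0.0546), KO replicate 3 (0.0813), OE replicate 1 (0.149) or OE replicate 2 (0.0829). MARVELD2 had CPM values of 63.2, 71.0 and 67.0 in control, 72.1, 77.4 and 64.4 in KO and 67.7, 63.9 and 59.0 in OE, and all groups overlapped. Its intervals were -0.11 to 0.30 for KO and -0.28 to 0.12 for OE against control (adjusted p = 0.454 and 0.637).

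**Figure D2:**
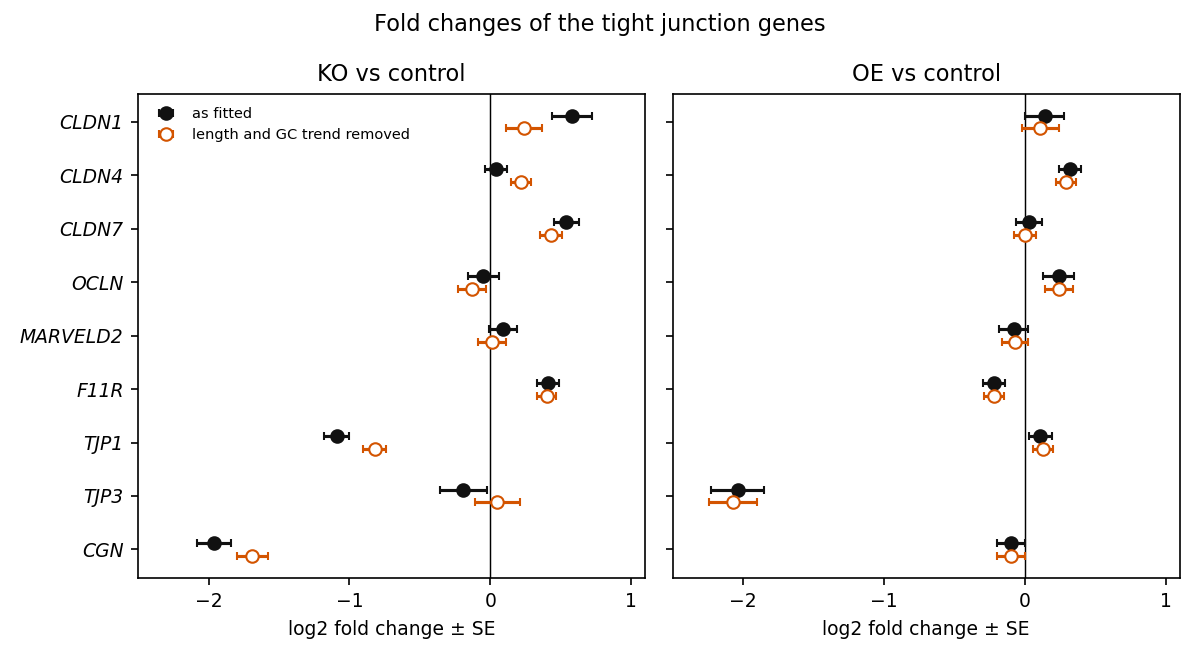
Log2 fold change with SE (x axis) of the 9 genes (y axis) in KO against control (left) and OE against control (right), as fitted (filled) and with each library's trend over exon length and GC content removed (open). CGN at -1.96 and TJP1 at -1.09 stand out in KO and TJP3 at -2.04 in OE, and removal of the trend moves CLDN1 from 0.58 to 0.24.

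Set directly against each other, KO and OE cells differed at 8 of the 9 genes, where 57.6% of all tested genes passed (28.6% higher, 29.0% lower) and 61.6% had no overlap, as did 8 of the 9: CLDN1, CLDN7, F11R and TJP3 were higher and CLDN4, OCLN, TJP1 and CGN lower in KO. With the trend removed 3 were higher and 3 lower, where 53.7% of all genes passed (28.4% higher, 25.3% lower), since CLDN1 (corrected adjusted p = 0.422) and CLDN4 no longer passed. CLDN1 differed by 0.44 ± 0.13 (adjusted p = 0.00762) and CLDN7 by 0.50 ± 0.09 (adjusted p = 2.44e-05). MARVELD2 did not pass (0.17 ± 0.10, 95% interval -0.03 to 0.37, adjusted p = 0.138).

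Levels can be compared between genes only per length, here as CPM per kilobase of exon. In control cells CLDN7 (53.3 ± 3.18) and CLDN4 (51.2 ± 0.64) led and overlapped, followed by F11R (40.8 ± 0.925) and TJP1 (18.6 ± 1.01), each apart from its neighbours in the order. MARVELD2 (12.5 ± 0.727), TJP3 (11.6 ± 0.986) and CGN (10.9 ± 0.62) overlapped in pairs next to each other, and OCLN (8.43 ± 0.837) and CLDN1 (5.93 ± 0.408) came last, both apart from their neighbours. In KO cells TJP1 went from rank 4 to rank 7 (8.74 ± 0.146, overlapping CLDN1) and CGN to rank 9 (2.79 ± 0.21), while CLDN7 (77.5 ± 6.60) led without overlap. In OE cells CLDN4 (63.8 ± 2.11) led without overlap and TJP3 was last (2.89 ± 1.23). Between genes, the levels in KO carry the trend over length described above.

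**Figure D3:**
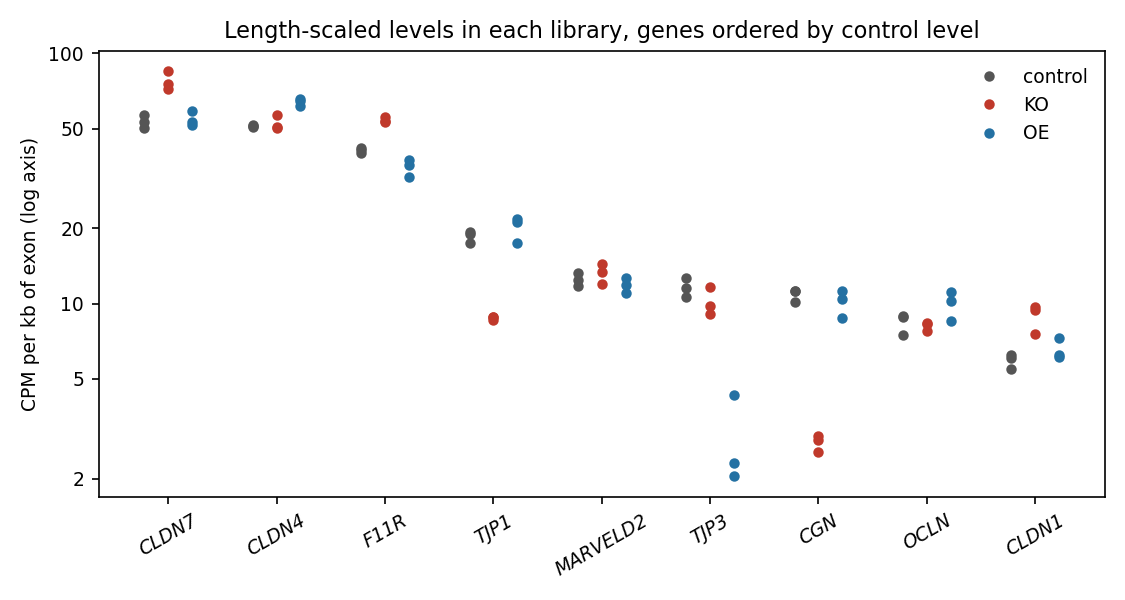
Level per kilobase of exon (y axis, log scale) of the 9 genes in each control, KO and OE library (points), ordered by the control mean. CLDN7, CLDN4 and F11R are the 3 highest in every group, and the last place is taken by CLDN1 in control, CGN in KO and TJP3 in OE.

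For each gene the tested gene with the most similar profile of log2 CPM over the 9 libraries was looked up, as a description in which differences between the groups weigh most. CGN went with EVPL (Pearson's r = 0.999), at 425 CPM in control, 138 in KO and 403 in OE. TJP1 went with PPP6R1 (r = 0.998), CLDN7 with NAXE (0.997), F11R with HTATIP2 (0.995), TJP3 with SEMA3B (0.992), CLDN1 with HSPA13 (0.983) and CLDN4 with SSX2IP (0.964). MARVELD2 (LSM12P1, 0.953) and OCLN (C2CD2, 0.918), which differed little between groups, had the lowest values.

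Of the promoter windows searched, 8 of the 9 genes had an entry in the RefSeq table and F11R had none. No window of a member held the grainyhead motif, which 0.134% of all 35116 windows held. The E-box was in 5 of the 14 windows of members, those of CLDN7, OCLN, TJP1 and TJP3, and in 20.6% of all windows.

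Further tight junction genes were taken from lists by role. Of 18 tested further plaque proteins 14 fell and 1 rose in KO against control (median -0.52), beside 25.9% of all tested genes that fell, and 17 of 18 had no overlap between the groups, beside 59.5% of all genes. These are long genes, with a median of 8954 exon bases against 5038 for all tested genes, and with the trend removed 7 fell and 1 rose (median -0.16), beside 20.6% of all genes that fell. Afadin (AFDN), the actin linker of nectins, had CPM values of 133, 143 and 152 in control, 37.2, 40.9 and 39.4 in KO and 158, 159 and 133 in OE, and fell in KO (-1.86 ± 0.10, corrected -1.40). The membrane-associated scaffold MAGI1 (-1.68 ± 0.19, corrected -1.24) and the angiomotins AMOT (-1.02 ± 0.09, corrected -0.73) and AMOTL1 (-0.86 ± 0.09, corrected -0.50) fell as well. The gene that rose was YBX3, the ZO-1-associated nucleic acid binding protein (0.33 ± 0.07, corrected 0.54); it was chosen after its value was seen. In OE against control AMOTL2 rose (0.51 ± 0.08), AMOT (-0.41 ± 0.09) and SHROOM2 (-0.45 ± 0.12) fell, and 15 did not pass. These 3 of 18 are 16.7%, near the 18.6% of all genes, and the SHROOM2 call was lost without control replicate 1 (adjusted p = 0.0532) or OE replicate 3 (0.06).

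**Figure D4:**
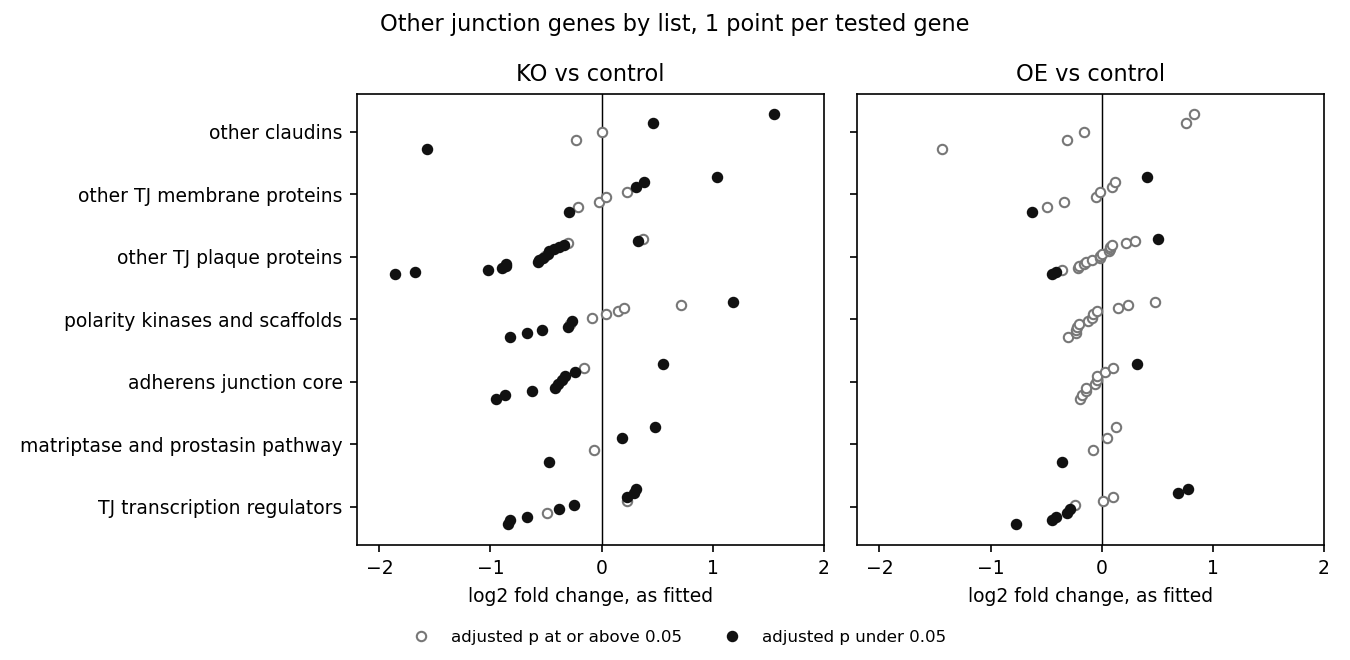
Log2 fold change (x axis) of each tested gene in 7 lists of junction genes (y axis) in KO against control (left) and OE against control (right); filled points passed at an adjusted p under 0.05. In KO, 14 of 18 further plaque proteins and 8 of 10 adherens junction genes lie to the left among those that passed, before the trend over length is removed.

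Of 19 further claudins 14 were too low to test. Of the 5 tested 60% passed in KO against control, near the 51.9% of all genes. CLDN12 rose in KO (45.1 to 62.3 CPM, 0.46 ± 0.11, corrected 0.37), CLDN8 rose from 1.42 to 4.16 CPM (1.55 ± 0.53, adjusted p = 0.0165, corrected adjusted p = 0.0729) and CLDN9 fell from 1.80 to 0.584 CPM (-1.57 ± 0.60, adjusted p = 0.031). In OE against control 0 of the 5 tested passed by edgeR and by DESeq2 and 1 by limma-voom, and 2 had an unadjusted edgeR p under 0.05. By edgeR 18.6% of all genes passed there, and with 5 genes a count of 0 shows little. Once corrected, CLDN12 fell in OE (-0.30 ± 0.10, corrected adjusted p = 0.0398). At these low levels the CLDN8 call was lost without control replicate 1 (adjusted p = 0.0546) and the CLDN9 call without control replicate 1 (0.067) or 2 (0.107) or KO replicate 2 (0.103) or 3 (0.091). Of 8 further membrane proteins 3 rose and 1 fell in KO (2 and 1 once corrected), 50% of them beside 51.9% of all genes. In OE 1 rose and 1 fell, 25% beside 18.6% of all genes. The virus receptor CXADR, which sits at tight junctions, had CPM values of 58.1, 57.0 and 54.7 in control, 105, 130.4 and 113 in KO and 34.9, 35.5 and 39.2 in OE. It rose in KO (1.04 ± 0.10, corrected 0.90) and fell in OE (-0.63 ± 0.10). EPCAM, which binds and stabilises CLDN7, was higher in KO only before the correction (0.38 ± 0.09, corrected 0.01, corrected adjusted p = 0.925) and rose in OE (0.41 ± 0.09). LSR, the receptor that brings tricellulin to corners between cells, rose in KO (0.31 ± 0.08, corrected 0.42).

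Of 12 polarity genes 1 rose and 5 fell in KO (2 and 2 once corrected), 50% of them, which is near the 51.9% of all genes. In OE 0 passed by edgeR, DESeq2 or limma-voom, beside 18.6% of all genes by edgeR. There 4 had an unadjusted edgeR p under 0.05, and 1 rose and 1 fell once corrected. The small GTPase CDC42 had CPM values of 369, 331 and 322 in control, 750.3, 736 and 838 in KO and 283, 276 and 317 in OE, and rose in KO (1.18 ± 0.08, corrected 1.58). SCRIB fell (-0.82 ± 0.09, corrected -0.22), PARD6B fell (-0.54 ± 0.16, corrected -0.77), and LLGL2 was lower only before the correction (-0.67 ± 0.09, corrected -0.10, corrected adjusted p = 0.311). Of 10 adherens junction genes 1 rose and 8 fell in KO, 90% of them beside 51.9% of all genes (1 and 5 once corrected, beside 45.6%). Plakoglobin JUP (-0.87 ± 0.08, corrected -0.56), vinculin VCL (-0.63 ± 0.09, corrected -0.31) and CTNND1 (-0.95 ± 0.14, corrected -0.70) were lower and beta-catenin CTNNB1 higher (0.55 ± 0.08, corrected 0.89). Exons of other genes covered 57.9% of the exon bases of CTNND1. In OE the P-cadherin CDH3 rose (0.32 ± 0.07) and 9 did not pass, so that 10% passed beside 18.6% of all genes. Of 4 genes of the matriptase pathway, which trims EPCAM, 75% passed in KO beside 51.9% of all genes: the protease ST14 fell (-0.47 ± 0.07, corrected -0.24) and its inhibitors SPINT2 (0.48 ± 0.08, corrected 0.69) and SPINT1 (0.18 ± 0.07, corrected 0.30) rose in KO. The uncorrected SPINT1 call in KO (adjusted p = 0.0412) was lost without any 1 of the control libraries or of KO replicates 1 and 2 (adjusted p from 0.0549 to 0.16). In OE against control SPINT1 fell (-0.36 ± 0.07, adjusted p = 0.00116, corrected -0.39) and 3 did not pass, so that 25% passed beside 18.6% of all genes.

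Of 10 tested transcription factors known to act on tight junction genes 3 rose and 5 fell in KO (2 and 5 once corrected), 80% of them beside 51.9% of all genes. In OE 2 rose and 5 fell, 70% beside 18.6% of all genes. Of the OE against control calls checked with 1 library left out, those of GRHL1, OVOL1 and KLF5 were lost in some fits. The OE calls of OVOL2 (adjusted p = 0.0499) and SNAI2 (adjusted p = 0.0313) were not checked in this way. The grainyhead factors, activators of claudins and of epidermal barrier genes, were lower in KO. GRHL3 had CPM values of 93.4, 86.7 and 93.2 in control, 55.6, 46.4 and 53.1 in KO and 101.9, 102.6 and 87.7 in OE. It fell in KO (-0.82 ± 0.10, corrected -0.81), as did GRHL1 (-0.84 ± 0.16, corrected -0.71) and GRHL2 (-0.67 ± 0.09, corrected -0.54). In OE against control GRHL1 was lower (-0.45 ± 0.16, adjusted p = 0.0437), a call lost in every fit that left out a control or OE library, and GRHL2 (-0.24 ± 0.09, adjusted p = 0.0616) and GRHL3 (0.10 ± 0.09, adjusted p = 0.547) did not pass. GRHL2 passed once corrected (adjusted p = 0.0297) and without OE replicate 1 (adjusted p = 0.0233). The epithelial factor ELF3 fell in OE (-0.77 ± 0.11), where KLF4 (0.69 ± 0.11) and OVOL1 (0.78 ± 0.22) rose and KLF5 fell (-0.31 ± 0.08). The OVOL1 and KLF5 calls were lost without control replicate 3 (adjusted p = 0.0955 and 0.0577). TP63, the master regulator of stratified epithelium, rose in KO (0.29 ± 0.09, corrected 0.45), a call lost without control replicate 2 (adjusted p = 0.0602) or KO replicate 2 (0.0559). SNAI2, a repressor that binds the E-box, was higher in KO than in OE before the correction (0.50 ± 0.09, corrected 0.16, corrected adjusted p = 0.131). Against control SNAI2 fell in OE (-0.28 ± 0.09, adjusted p = 0.0313), also once corrected (-0.30, adjusted p = 0.0147). In KO it was above control only before the correction (0.23 ± 0.09, adjusted p = 0.0379, corrected adjusted p = 0.199). ZEB1 and ZEB2 did not pass the filter: ZEB1 summed to 14 counts in control, 8 in KO and 8 in OE, and ZEB2 to 4, 12 and 4.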

How the data were processed

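Poly-A selected RNA of 9 N/TERT samples was sequenced as paired reads, per the labels' protocols, and groups were taken from the sample titles. The deposited values are raw counts of reads per gene. The file headers name featureCounts 1.5.2 and the annotation of Ensembl 101 (GRCh38), while HISAT2 1.03, a featureCounts 0.1.0, FastQC and DESeq2 stand in the submitters' processing notes. The header's command sets no option for pairs, strand or overlapping genes, so mates may be counted separately and overlapping genes cannot be told apart. Columns of other series numbered 0.

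The fit used edgeR 4.0.16 (R 4.3.3): filterByExpr (minimum count 10), TMM, and 1 quasi-likelihood fit of all 9 libraries on the group (common biological coefficient of variation 10.2%). Alternatives used limma 3.58.1 and DESeq2 1.42.0. CPM per kilobase used the exon length in the files. For the correction, a loess surface (span 0.3) of log2 CPM (prior count 2) over log2 exon length and GC content (GENCODE release 29, 99.6% of tested genes) entered the fit as an offset. In data simulated for KO against control on 13390 genes, the fit recovered 62% of genes changed by 0.5 log2 and 100% of those changed by 1, and called 0.0682% of unchanged genes. With a length trend added to the simulated data it called 15% of unchanged genes as fitted and 0.106% with the trend removed. In the latter it recovered 68% and 98% of the changed genes. The simulation gave all genes the same spread (coefficient of variation 10.2%) and changed only genes above a minimum level. Its trend was a straight line over log2 exon length in KO libraries, without GC content. These rates hold for such settings and do not show how the fits behave on the real libraries. Between 2 libraries of a group the chi-square per degree of freedom was 2.74 to 11.7, above the value for independently counted reads. Mates counted separately would raise it, and the part of this was not tested. Exon overlap was computed from the exon coordinates in the files, over either strand.

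The members, the lists, the tests and the length correction were chosen with earlier results of these data known. Named are the 9 genes, SGPL1, GRHL1 to GRHL3, up to 4 genes past the threshold per list and comparison by smallest p, and for each member the most correlated gene with a mean of at least 5 CPM. Lists were counted, not tested. Some genes that this rule names are not reported here. Sequences are from the RefSeq promoter table (GRCh38.p14). Proteins were not used here.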

Additional observations from a re-analysis of the deposited data

How the results depend on the processing

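Against the alternatives, the KO to control values of CGN (-2 to -1.69), TJP1 (-1.13 to -0.82), CLDN7 (0.42 to 0.59) and F11R (0.39 to 0.42) and the OE to control values of TJP3 (-2.42 to -1.81) and CLDN4 (0.29 to 0.34) passed in all 19 alternative fits. No value of the 9 genes that passed changed sign. The number of them that fell in OE was 2 in place of 1 under DESeq2's Wald test, limma-voom, and both fits with the length and GC trend removed, where F11R passed. Without OE replicate 3 it was also 2, and the number that rose was 2; over the fits without 1 library it ranged from 1 to 2 for both. The OE to control count over all genes was 2493, and 1431 at an adjusted p under 0.01. Over the other junction lists 14 genes were called in OE against control, and 8 at that threshold. When 1 library was left out, from 9 (without control replicate 3) to 15 (without KO replicate 3) were called. By list, the share called in the main fit ran from 0 to 70% of the tested genes, beside 18.6% of all genes. The 70% was that of the transcription factors. LLGL2 was lower in KO than in OE (-0.46) but had a value of 0.07 with the trend removed, with or without the replicate block, as the alternative takes out its length and GC trend. Between groups, deviations of libraries with the same number in their titles correlated between -0.0772 and 0.066. Those of libraries with different numbers correlated between -0.0859 and 0.109, and 3 of 9 libraries correlated best with their own number. These values show no pairing by number but cannot tell whether same-numbered libraries shared a culture or day. With the replicate block 6907, 2468 and 7669 genes passed in KO against control, OE against control and KO against OE, and no call of the 9 genes changed; GRHL1 lost its calls in OE against control (adjusted p = 0.0542) and KO against OE (0.0598). Counts per library ran from 91 to 475 for TJP3 in OE and control. For CGN in KO and control they ran from 100 to 704. The part of these counts in the precision of the fold changes was not tested.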
